A study of Mus musculus with 8 samples.

Results

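The genes described here are 10 members of the epidermal growth factor (EGF) receptor system, read in RNA of sorted mouse intestinal epithelium with and without the transcription factor gene Sox4. They were chosen by name from the 23366 gene symbols of the count tables, with earlier results of these data known. They are 3 receptors (Egfr, Erbb2 and Erbb3), the receptor inhibitor Lrig1 and 6 ligands (Egf, Ereg, Areg, Tgfa, Hbegf and Btc). All 10 passed the filter on low counts.

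The epithelium came from male littermates aged 6 weeks. Control animals were Sox4fl/fl, with Sox4 alleles flanked by loxP sites and no Cre. Knockout animals (Sox4cKO) were Sox4fl/fl:vilCre+/-, in which villin-Cre, active in the intestinal epithelium and not in other tissues of the gut wall, deletes those alleles. The floxed alleles were thus shared by all groups, and an effect of Cre itself cannot be told apart from loss of Sox4. From each animal CD326+ (epithelial) cells were sorted into a CD44- gate enriched for villus cells (CD44minus) and a CD44+ gate enriched for crypt cells (CD44plus), at 50000 cells per library. Each of the 4 groups held 2 libraries from 2 animals, and both gates of a replicate number and genotype came from 1 animal. Pairs of values below are in the order replicate 1 and replicate 2.

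The receptors are tyrosine kinases of the cell surface. Binding of a ligand joins them in pairs, and the paired kinases start the Ras-MAP kinase and PI3K cascades. ErbB2 has no known soluble ligand and ErbB3 has little kinase activity of its own, so both work mainly as partners of another family member. The ligands are made as membrane-bound precursors and released by ADAM proteases. In the intestine the pathway drives the division of crypt cells. Lrig1 binds the receptors, promotes their degradation, and marks crypt base stem cells, where it restrains growth.

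Relative to the reads of the library, Lrig1 and Egfr were higher in all 4 crypt-enriched libraries than in any villus-enriched library, and Areg, Ereg and Egf were lower. RefSeq windows of 250 bases directly before the start site, on the GRCm38.p6 build and written on the gene's own strand, are shown for Lrig1, Egfr and Areg, whose levels divided the gates in opposite directions and which had more reads than Ereg and Egf in every library. Capitals mark matches, on either strand, to the GC box GGGCGG and to the cyclic AMP response element TGACGTCA. The windows lie at chr6:94700146-94700395 (Lrig1, minus strand), chr11:16751953-16752202 (Egfr, plus strand) and chr5:91139349-91139598 (Areg, plus strand).
Lrig1: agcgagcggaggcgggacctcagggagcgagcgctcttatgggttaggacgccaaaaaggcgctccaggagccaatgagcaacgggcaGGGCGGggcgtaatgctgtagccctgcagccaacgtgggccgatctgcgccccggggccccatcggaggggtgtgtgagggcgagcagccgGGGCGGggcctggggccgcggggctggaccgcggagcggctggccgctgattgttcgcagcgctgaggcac
Egfr: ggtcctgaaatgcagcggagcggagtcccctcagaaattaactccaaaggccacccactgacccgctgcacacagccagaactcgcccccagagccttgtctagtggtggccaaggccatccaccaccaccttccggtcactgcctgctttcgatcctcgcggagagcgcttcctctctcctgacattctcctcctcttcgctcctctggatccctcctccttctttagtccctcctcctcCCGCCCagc
Areg: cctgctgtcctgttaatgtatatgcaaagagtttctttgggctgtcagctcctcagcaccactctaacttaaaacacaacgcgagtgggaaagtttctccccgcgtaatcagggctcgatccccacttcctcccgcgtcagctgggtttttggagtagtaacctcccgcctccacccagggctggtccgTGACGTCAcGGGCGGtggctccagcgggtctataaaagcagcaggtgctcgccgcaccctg
The Lrig1 window was 71.6% G and C and held 2 GC boxes, the Egfr window was 60.8% G and C with 1 GC box, and the Areg window was 57.2% G and C with 1 GC box and 1 cyclic AMP response element. The GC box occurred in 32.7% and the response element in 1.55% of all 32851 windows of this length. Neither ACAAAG (in 16.5% of all windows) nor ACAATG (in 10.7%), 2 hexamers that Sox proteins are known to bind, occurred on either strand of these 3 windows. A match or its absence describes only the letters of the window. On GRCm38, Areg (chromosome 5, 91139599 to 91148432), Ereg (91074622 to 91093646) and Btc (91357261 to 91402994) are neighbours on 1 chromosome. Lrig1 lies on chromosome 6 (94604529 to 94700158) and shares 144 bases of exon, 2.58% of its exon length, with Slc25a26 on the opposite strand. Egf shares 607 bases (5.38%) with Gm42697 and 500 bases (4.435%) with 6330410L21Rik, also on the opposite strand. Ereg shares 141 bases (3.42%) with Gm19610 in the same way, and Tgfa (1.82%) and Erbb2 (0.173%) share less. Egfr lies on chromosome 11 (16752203 to 16918158), Erbb2 on the same chromosome (98412470 to 98437716) and Erbb3 on chromosome 10 (128567523 to 128589652).

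Depth differed between gates. Reads counted to genes ran from 886194 to 6963345 per CD44minus library and from 6007554 to 13238050 per CD44plus library, so that 3 reads, the most that a count of 0 allows, equalled 0.817 to 2.02 CPM in CD44minus and 0.268 to 0.548 CPM in CD44plus. CPM is the number of reads of a gene per 1000000 counted reads of its library, scaled by trimmed mean of M values (TMM). In the CD44plus gate Sox4 had 658 to 1438 reads per control library but 123 and 271 reads in the knockout libraries, and in CD44minus 1 to 21 reads. The summed level of 10 crypt markers was 321 to 613 CPM in CD44minus and 8325 to 10762 CPM in CD44plus, and that of 10 enterocyte markers 10389 to 54142 CPM in CD44minus and 1290.2 to 1839 CPM in CD44plus. Markers of Paneth cells, 8 genes, went the other way from the crypt markers. They summed to 5906 to 32456 CPM in CD44minus and 3434 to 5122 CPM in CD44plus. The part of Paneth cells in the levels below was not tested. Sox4cKO CD44minus replicate 2 stood apart: its epithelial markers summed to 24379.9 CPM against 4124 to 8692 CPM in the other CD44minus libraries, its log CPM correlated with that of replicate 1 at 0.763 across genes, and results that rest on it are given with and without it. In this library 76.8% of uniquely placed reads were assigned to no gene. The share was 92.0% to 96.6% in the other CD44minus libraries and 64.6% to 79.3% in CD44plus. The part of this difference between libraries and gates in the levels below was not tested. CD44plus libraries also carried RNA of immune cells, with mast cell markers at 1911 and 3178 CPM (control) and 3679 and 17694 CPM (knockout) against 60.9 to 97.1 CPM in CD44minus, and T cell markers at 1717 to 4372 CPM against 173 to 754 CPM. All 8 mast cell markers were detected in each library except Cma1 in control CD44plus replicate 2, and all T cell markers in the tables were detected in each library. The part of these cells in the levels below was not tested. In bulk RNA, fewer cells of a type and less RNA per cell cannot be told apart.

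**Figure D1:**
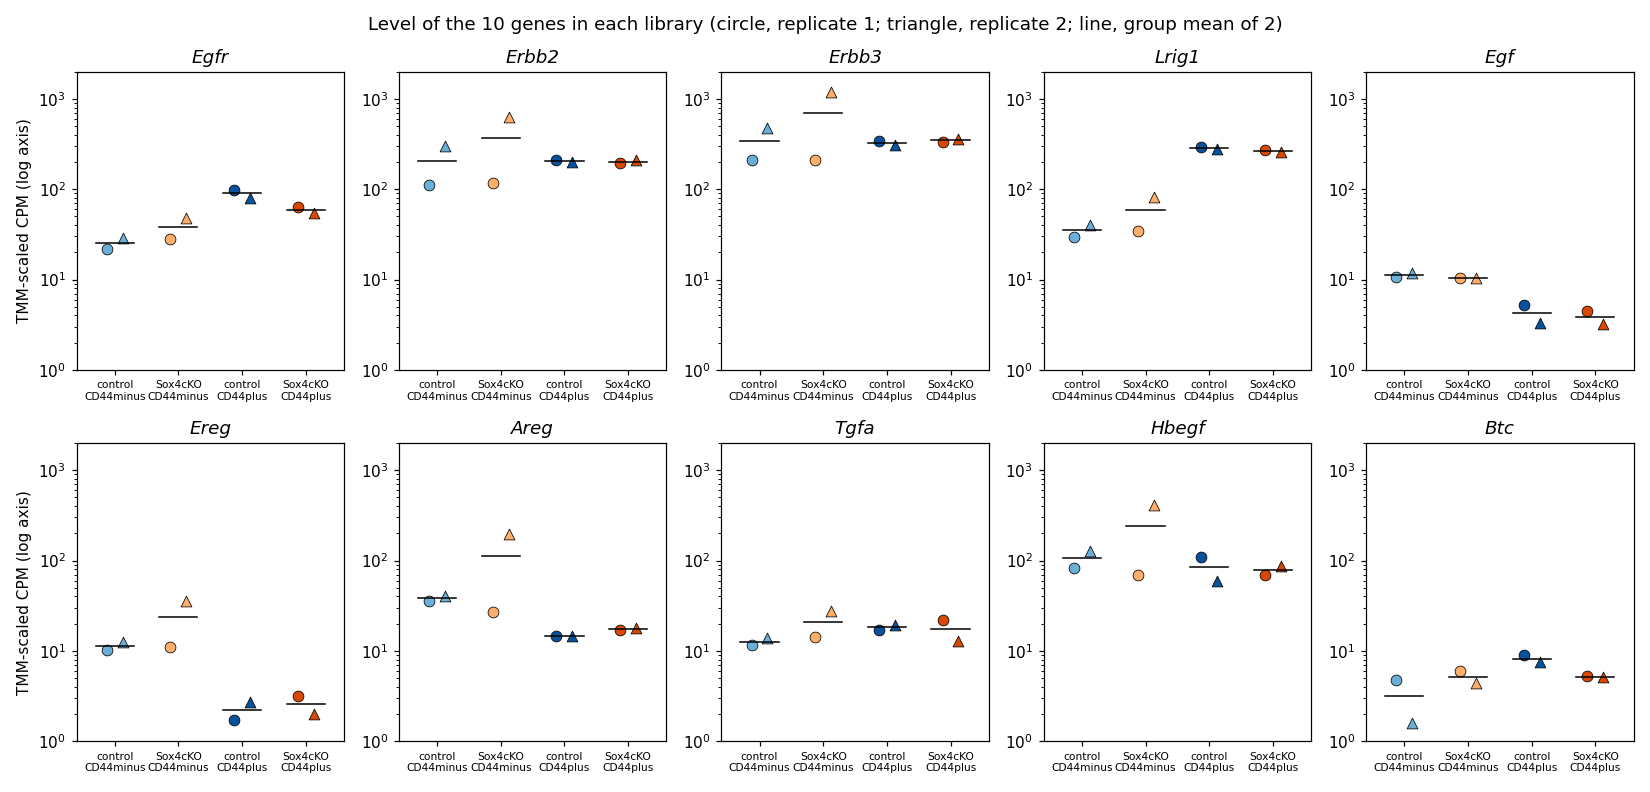
TMM-scaled CPM (log axis) of the 10 genes in each of the 8 libraries, by genotype and gate, with circles for replicate 1, triangles for replicate 2 and a line at the mean of 2. Lrig1 and Egfr sit higher in all CD44plus libraries than in any CD44minus library, and Egf, Ereg and Areg sit lower, while Sox4cKO CD44minus replicate 2 is the highest library for Erbb2, Erbb3, Areg, Ereg, Tgfa and Hbegf.

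The first comparison was between gates, crypt-enriched against villus-enriched cells. Erbb3 and Erbb2 were the most abundant receptor transcripts in both gates, Egfr and Lrig1 were higher in CD44plus, and the ligands Areg, Ereg and Egf were higher in CD44minus. Of the 10 genes, 2 lay higher in all 4 CD44plus libraries than in all 4 CD44minus libraries and 3 lay lower, while 5 overlapped. Over all 20427 genes tested, 17.1% lay higher and 9.64% lower in the same way.

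Lrig1 had the largest fold difference between gates of the 10 genes in control. In CD44minus the control libraries read 29.6 and 40.5 CPM and the knockout libraries 34.7 and 83.1 CPM. In CD44plus the control libraries read 293 and 283 CPM and the knockout libraries 271 and 260.5 CPM. The lowest crypt-enriched library lay above the highest villus-enriched one by a wide margin in both genotypes. In control the fold was 8.18 (log2 fold change 3.03, standard error (SE) 0.79, 95% interval 1.36 to 4.70) and missed the threshold of 0.05 in edgeR's quasi-likelihood test over all 8 libraries (adjusted p = 0.0507). With the animal as a block, which uses the shared animal of the gates, it passed (3.05, SE 0.94, edgeR adjusted p = 0.0162), as it did in the fit of the 4 control libraries alone (2.82, SE 0.48, edgeR adjusted p = 1.3e-07). In these 2 fits p came from a normal distribution, so the spread was treated as known rather than estimated from few libraries. In Sox4cKO the fold was 4.50 (2.169, SE 0.76, edgeR adjusted p = 0.152), and with the animal as a block 2.30 on the log2 scale (SE 0.92, edgeR adjusted p = 0.0949). The fit of the 4 Sox4cKO libraries alone gave 2.21 (SE 0.69, edgeR adjusted p = 0.170). Without Sox4cKO CD44minus replicate 2 the Lrig1 difference in Sox4cKO was 2.95 on the log2 scale.

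Egfr, the receptor of Egf, Areg, Tgfa and the other ligands here, followed the same direction with a smaller difference. Control libraries read 21.6 and 28.7 CPM in CD44minus against 99.5 and 80.7 CPM in CD44plus, and knockout libraries 28.2 and 48.0 CPM against 62.9 and 55.0 CPM. The gates did not overlap in either genotype, but the gap was wide in control and narrow in Sox4cKO. The control fold of 3.57 (log2 fold change 1.84, SE 0.59) gave an edgeR adjusted p = 0.0998 over 8 libraries, 0.0494 with the animal as a block and 6.07e-05 in the fit of the 4 control libraries. The Sox4cKO fold of 1.54 (0.62, SE 0.57, edgeR adjusted p = 0.534) did not pass. The difference between these 2 log2 fold changes was -1.21 (SE 0.81, edgeR adjusted p = 1.00), so a smaller gate difference of Egfr in Sox4cKO was not shown.

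Erbb2 and Erbb3 did not divide the gates. Erbb2 read 110.5 and 303 CPM in the control libraries of CD44minus and 118 and 625 CPM in those of the knockout, while all 4 CD44plus libraries lay between 194 and 211 CPM. Erbb3 read 211 and 475 CPM (control) and 208 and 1194 CPM (knockout) in CD44minus and 313 to 360.0 CPM in CD44plus. The CD44plus libraries of both genes agreed closely with each other, and the CD44minus libraries lay on both sides of them. In control the log2 differences were -0.01 for Erbb2 (95% interval -1.86 to 1.84) and -0.07 for Erbb3 (95% interval -2.08 to 1.94), intervals too wide to show that the gates were alike.

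Among the ligands, amphiregulin (Areg) and epiregulin (Ereg) were lower in the crypt-enriched gate. For Areg the control libraries read 35.7 and 40.5 CPM in CD44minus and 14.7 and 14.6 CPM in CD44plus, and the knockout libraries 27.2 and 195 CPM and 17.2 and 17.9 CPM. Every CD44minus library thus exceeded every CD44plus library, and the 4 CD44plus values lay within a narrow range. The fold was 2.60 in control (log2 fold change -1.38, SE 0.71, edgeR adjusted p = 0.240) and 6.36 in Sox4cKO (-2.67, SE 0.73, edgeR adjusted p = 0.0595). Without Sox4cKO CD44minus replicate 2 the Areg difference in Sox4cKO was -0.62 on the log2 scale. The fit of the 4 control libraries gave -1.58 (SE 0.36, edgeR adjusted p = 7.5e-05).

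Ereg, whose gene lies beside that of Areg, was rare. In CD44minus the control libraries held 15 and 32 Ereg reads (10.1 and 12.6 CPM) and the knockout libraries 22 and 132 (10.9 and 36.0 CPM). In CD44plus the control libraries held 19 and 15 reads (1.70 and 2.74 CPM) and the knockout libraries 22 and 21 (3.18 and 1.99 CPM). The gates did not overlap in CPM, and each count lay above the 0.698 to 3.73 reads that a background measure predicted for it (reads per exon length on receptor genes of smell and pheromones). Ereg was 5.15-fold lower in CD44plus in control (-2.36, SE 0.86, edgeR adjusted p = 0.135) and 9.10-fold lower in Sox4cKO (-3.19, SE 0.87, edgeR adjusted p = 0.0589). Without Sox4cKO CD44minus replicate 2 the Ereg difference in Sox4cKO was -2.07 on the log2 scale. With the animal as a block Ereg passed in control (-2.37, SE 0.76, edgeR adjusted p = 0.0203) and in Sox4cKO (-3.01, SE 0.79, edgeR adjusted p = 0.00631).

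Egf, the founding ligand of the family, was also lower in CD44plus but had few reads in both gates. In CD44minus the control libraries held 16 and 30 Egf reads (10.8 and 11.8 CPM) and the knockout libraries 21 and 38 (10.4 and 10.4 CPM). The same background measure predicted 6.76 and 6.65 reads for the former and 10.2 and 2.72 reads for the latter. In CD44plus Egf read 5.18 and 3.29 CPM (control) and 4.48 and 3.22 CPM (knockout). Its 18 to 58 reads per CD44plus library were 5.26 to 17.8 times the predicted reads. The control difference was -1.40 on the log2 scale (SE 0.88, edgeR adjusted p = 0.304), -1.59 in the fit of the 4 control libraries (SE 0.65, edgeR adjusted p = 0.0294) and -1.25 after subtraction of the predicted background (SE 1.07, edgeR adjusted p = 0.434).

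The other 3 ligands overlapped between gates. Hbegf, the heparin-binding ligand, read 82.9 and 128 CPM in the control libraries of CD44minus, 69.8 and 409 CPM in those of the knockout, and 59.2 to 110.4 CPM in CD44plus. Transforming growth factor alpha (Tgfa) ranged from 11.5 to 27.8 CPM in CD44minus and from 12.8 to 21.8 CPM in CD44plus. Betacellulin (Btc) was the rarest ligand in CD44minus by reads, with 4 to 16 reads per library, and had 36 to 100 reads in CD44plus. The 4 reads of control CD44minus replicate 2 could not be separated from the 2.66 that the background measure predicted. None of the 3 passed in either genotype in the fit of 8 libraries (log2 differences in control -0.32 for Hbegf, 0.53 for Tgfa and 1.43 for Btc).

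In the fit of all 8 libraries, 0 of the 10 genes passed between gates in control, where 2.46% of all genes did, and 0 of 10 passed in Sox4cKO, where 2.59% did. By unadjusted p under 0.05 in the same edgeR test, 4694 genes in control and 3611 in Sox4cKO were nominal, among them Lrig1, Egfr and Ereg in control and Lrig1, Ereg and Areg in Sox4cKO. With the animal as a block, Lrig1 and Egfr passed as higher in control, as did 7.37% of all genes, and Ereg passed as lower, as did 10.5%. In Sox4cKO the block let only Ereg pass, as lower, as did 4.43% of all genes. The fit of the 4 control libraries called Lrig1 and Egfr higher, with 24.4% of its genes, and Areg, Ereg and Egf lower, with 30.4%. The share of the 10 genes called in that fit was close to that of all genes. The p-values of the block and of the control fit treated the spread as known, as said above for Lrig1. The fit of the 4 Sox4cKO libraries called 0 of 10 genes and 0% of all genes.

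These calls changed with the settings of the fit and with the libraries in it. With all 8 libraries kept, Lrig1 passed in control with DESeq2's size factors (edgeR adjusted p = 0.0300) and with no filter on low counts (edgeR adjusted p = 0.0310). It also passed, in both genotypes, with library totals, by DESeq2, by limma-voom and with background subtracted. Areg passed in Sox4cKO with size factors, totals, no filter, DESeq2 and background subtracted, and Ereg with no filter, DESeq2 and voom. In control Egfr passed by DESeq2, by voom and with background subtracted, Ereg by DESeq2 and Areg with totals. Hbegf passed in Sox4cKO with totals. More genes of the whole table passed in each setting as well. Calls also changed on removal of either of the 2 discordant Sox4cKO CD44minus libraries. Without replicate 1 of that group, Lrig1 (3.005), Egfr (1.81), Ereg (-2.41) and Areg (-1.40) passed in control (edgeR adjusted p = 1.73e-05 to 0.00364), where 24.1% of genes passed as higher and 12.3% as lower. Without replicate 2 the same 4 passed (edgeR adjusted p = 0.000124 to 0.0281), with 22.8% and 11.8% of genes. Without Sox4cKO CD44plus replicate 1, Lrig1 passed in control (2.97, edgeR adjusted p = 0.0360), as did 2.34% of genes as higher. In Sox4cKO, removal of CD44minus replicate 2 let Lrig1 (2.95, edgeR adjusted p = 0.00199) and Egfr (1.07, edgeR adjusted p = 0.0479) pass as higher, with 25% of genes. Removal of replicate 1 let Lrig1 pass as higher, with 8.45% of genes, and Areg, Ereg, Hbegf, Erbb3 and Erbb2 as lower, with 8.25%. Without replicate 1 and without replicate 2 the Lrig1 estimate was 3.005 and 3.03 in control, and 1.68 and 2.95 in Sox4cKO. Egfr, Areg, Ereg and Egf also kept their direction in both genotypes. How many of all genes did so was not counted.

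The median log2 difference of all genes between gates was -0.19 in control and -0.48 in Sox4cKO with TMM. It was -0.52 and -0.72 with DESeq2's size factors, and -0.77 and -0.72 with library totals alone, and the levels of single genes shift with it. Lrig1 and Egfr were positive, and Areg, Ereg and Egf negative, in both genotypes under these 3 scalings.

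**Figure D2:**
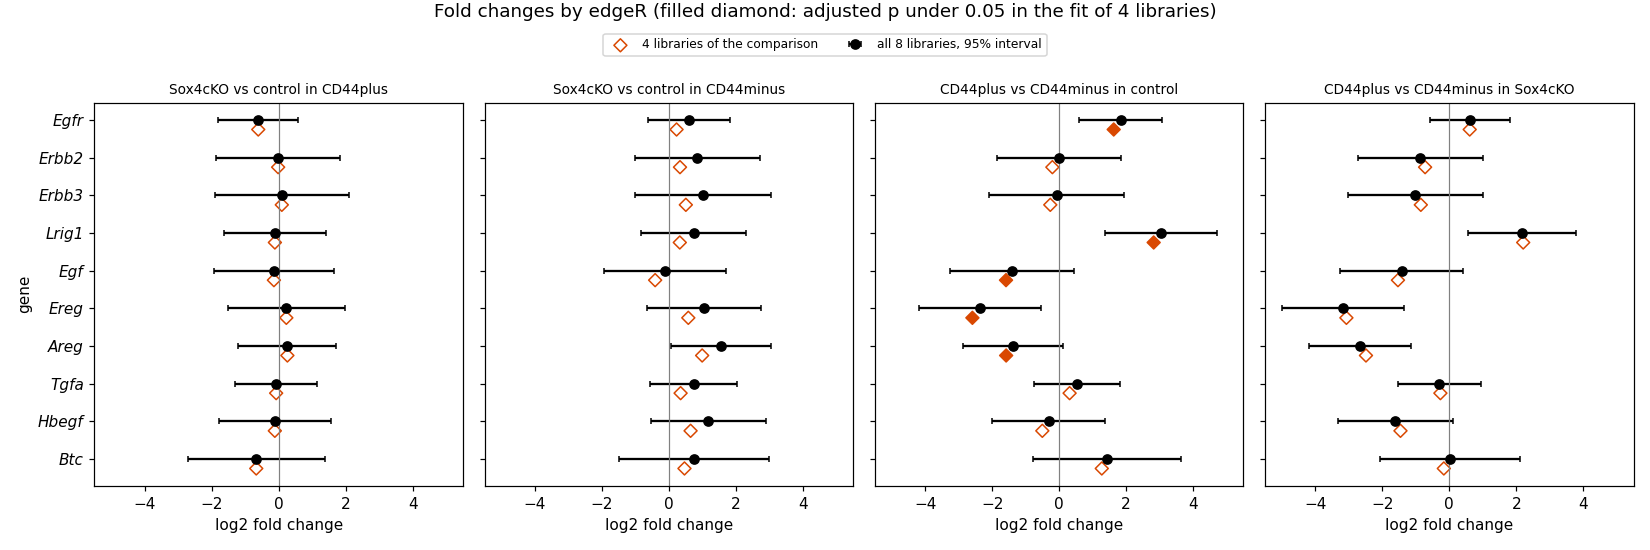
Log2 fold changes of the 10 genes in the 4 comparisons between groups. Black points are the edgeR fit of all 8 libraries with 95% intervals, and diamonds are the fit of the 4 libraries compared, filled where the adjusted p was under 0.05. Filled diamonds appear only between gates in control, for Egfr, Lrig1, Egf, Ereg and Areg, and no gene has one between genotypes.

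Ratios between genes of 1 library do not depend on the scaling of libraries. On CPM per kilobase of exon, Lrig1 stood at 2.49 to 3.51 times Egfr in the 4 CD44minus libraries. In CD44plus the ratio was 5.97 and 7.10 (control) and 8.73 and 9.60 (knockout). Lrig1 thus exceeded Egfr in every library, by more in CD44plus, and there by more in both Sox4cKO libraries than in either control library. The exon lengths merge all annotated exons of a gene, 5585 bases for Lrig1 and 11326 for Egfr, and the size of the ratio depends on them. Areg stood at 3.61 to 10.8 times Lrig1 in CD44minus and at 0.231 to 0.316 times in CD44plus. On this scale these 2 transcripts therefore traded places between gates. The ratio of Erbb3 to Erbb2 was 1.36 to 1.66 across all 8 libraries, Sox4cKO CD44minus replicate 2 (1.66) included.

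Summed per kilobase, the receptor transcripts were mostly Erbb3 and Erbb2 everywhere. Erbb3 made up 53.3% to 61.5% of the 3 receptors and Erbb2 36.5% to 41.6%. Egfr made up 1.31% to 4.17% in CD44minus, and in CD44plus 8.30 and 7.31% (control) and 5.63 and 4.62% (knockout). Its share was higher in each CD44plus library than in each CD44minus library. Among the ligands Areg and Hbegf together dominated. Areg made up 50.2% to 61.8% of ligand transcripts in CD44minus and 30.0% to 41.3% in CD44plus, and Hbegf 32.5% to 39.9% and 41.0% to 56.5%. Areg was the leading ligand on this scale in all 4 CD44minus libraries, and Hbegf in all 4 CD44plus libraries. Hbegf and Areg were close in control CD44plus replicate 2 (41.0% and 40.2%) and in Sox4cKO CD44plus replicate 1 (42.2% and 41.3%). The order depends on exon length, 1215 bases for Areg and 4834 for Hbegf. Without division by length, Hbegf had more CPM than Areg in every library.

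**Figure D3:**
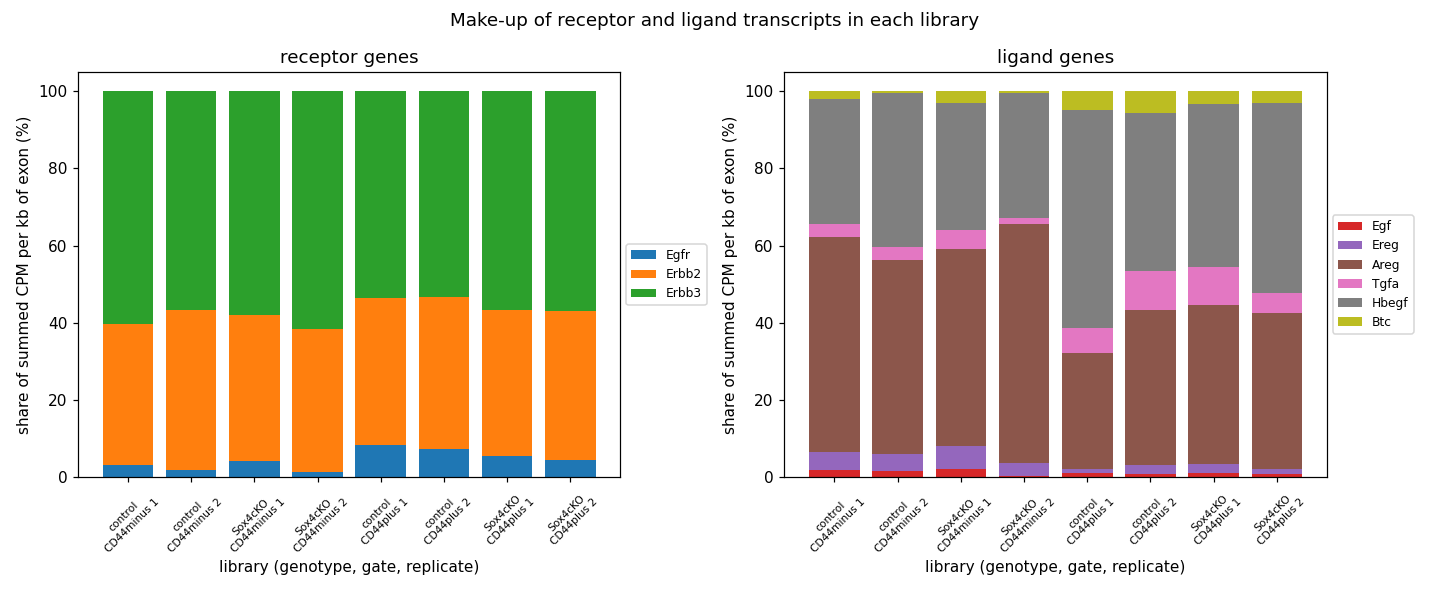
Share of each gene in the summed CPM per kilobase of exon of the 3 receptors (left) and the 6 ligands (right), as stacked bars that reach 100% for each of the 8 libraries. The Egfr segment is 1.31% to 4.17% in CD44minus and 4.62% to 8.30% in CD44plus, and the Areg segment shrinks from 50.2% to 61.8% in CD44minus to 30.0% to 41.3% in CD44plus.

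A measure chosen after the values were seen set each gene against 10 epithelial markers (Epcam, Cdh1, keratins and others) of the same library, since these differed between CD44minus libraries. Per 1000 CPM of these markers, Erbb2 stood at 22.9 to 34.8 CPM in the 8 libraries and Erbb3 at 39.7 to 54.7 CPM. The wide spread of both genes over the CD44minus libraries thus went along with that of the markers. Lrig1 stood at 3.41 to 8.41 in CD44minus and 32.0 to 37.99 in CD44plus, and Areg at 4.66 to 8.58 and 1.89 to 2.41. Egfr (1.97 to 6.85 against 7.40 to 12.7) and Ereg (1.45 to 2.64 against 0.218 to 0.376) also kept the gates apart. So did 2 genes that overlapped in CPM, Hbegf (14.7 to 19.9 in CD44minus against 7.96 to 14.1 in CD44plus) and, by a narrow gap, Erbb3 (lowest CD44minus library 48.99, highest CD44plus library 48.4). Erbb2, Tgfa and Btc overlapped, as did Egf. How many of all genes kept the gates apart on this measure was not counted, so the separation is not read as particular to these genes. On this measure Areg in Sox4cKO CD44minus was 6.61 and 8.01, within the control values of 8.58 and 4.66.

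**Figure D4:**
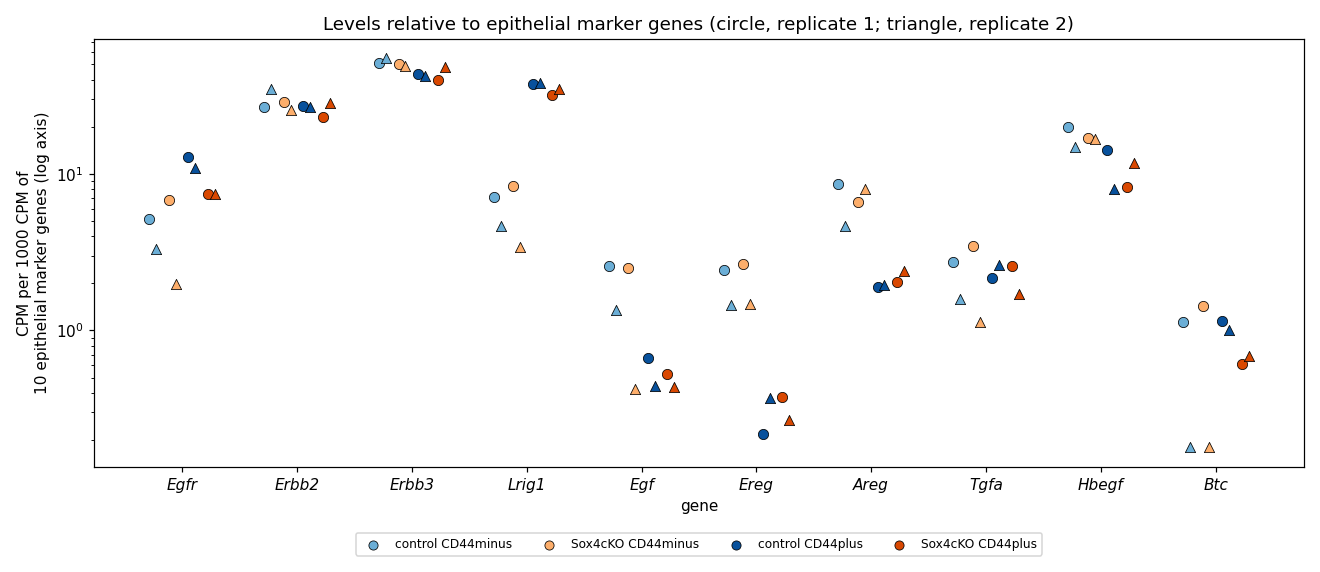
Level of each gene per 1000 CPM of 10 epithelial marker genes (log axis) in each library, with colours for the 4 groups, circles for replicate 1 and triangles for replicate 2. Erbb2 and Erbb3 each span a narrow range over the 8 libraries. Lrig1 and Egfr lie higher in every CD44plus library than in any CD44minus library, and Areg, Ereg, Hbegf and, narrowly, Erbb3 lie lower.

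The order of the genes by CPM per kilobase differed between gates. In control CD44plus, Erbb3 (mean 54.3, SD 3.19, n = 2) and Lrig1 (51.5, SD 1.31, n = 2) led and overlapped each other. They were followed by Erbb2 (39.4), Hbegf (17.5), Areg (12.1), Egfr (7.95), Tgfa (2.81), Btc (1.82), Ereg (0.537) and Egf (0.376). Of these neighbours only Erbb3 and Lrig1, and Ereg and Egf, had overlapping libraries. In control CD44minus, Erbb3 (57.0), Erbb2 (39.7) and Areg (31.4) led, with neighbours that overlapped, ahead of Hbegf (21.8) and Lrig1 (6.28), and Btc (0.696) came last. Lrig1 thus held rank 2 of 10 in the crypt-enriched gate and rank 5 in the villus-enriched gate, in both genotypes.

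The second comparison was between genotypes in the crypt-enriched gate, where Sox4 was read at its highest. None of the 10 genes passed the test, and the group means differed by 1.59-fold (Btc) at most. Egfr, at 99.5 and 80.7 CPM with Sox4 and 62.9 and 55.0 CPM without it, was 1.53-fold lower (log2 fold change -0.61, SE 0.57, 95% interval -1.80 to 0.58, edgeR adjusted p = 1.00). Both Sox4cKO libraries lay below both control libraries. In the fit of the 4 CD44plus libraries, whose spread is smaller, the estimate was the same with an SE of 0.19 (unadjusted p = 0.0128, edgeR adjusted p = 0.805).

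Btc had the largest fold of the 10 genes here, with 8.94 and 7.49 CPM against 5.21 and 5.12 CPM, a ratio of 1.59 (-0.67, SE 0.98, edgeR adjusted p = 1.00). Lrig1, given above for these libraries, was 1.08-fold lower (-0.12, SE 0.73). Areg, at 14.7 and 14.6 CPM against 17.2 and 17.9 CPM, was 1.20-fold higher (0.26, SE 0.69). In these 3 genes the groups did not overlap, but the distance was small against the standard error. The other 6 genes overlapped between genotypes, with log2 differences from -0.15 (Egf) to 0.23 (Ereg). Egfr, Lrig1 and Btc were the 3 of 10 with both Sox4cKO libraries lower, as were 16.4% of all genes, and Areg the 1 of 10 with both higher, as were 14.2%.

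No gene of the 10 passed in CD44plus over 8 libraries, and neither did any gene of the whole table (0%), with 128 genes at an unadjusted p under 0.05 in edgeR. In the fit of the 4 CD44plus libraries 0 of 10 passed and 0.0997% of all genes did. The intervals for Erbb2 (-1.87 to 1.83), Erbb3 (-1.91 to 2.10) and Hbegf (-1.79 to 1.56) reach beyond 1 log2 unit in both directions, so differences of that size are not excluded. Mast cell and T cell markers, given above for these libraries, were highest in Sox4cKO CD44plus replicate 2, where Egfr was lowest (55.0 CPM), and mast cell markers in replicate 1 also exceeded both controls. Their part in the Egfr level was not tested. Over removal of each library in turn the log2 difference of Egfr ran from -0.83 to -0.45.

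Between genotypes in the villus-enriched gate the libraries of the knockout disagreed with each other. Areg read 27.2 and 195 CPM there, one value on each side of the control pair (35.7 and 40.5 CPM). In TMM-scaled CPM, Erbb3, Erbb2 and Hbegf had the same shape, with Sox4cKO replicate 1 close to the lower control library and replicate 2 far above both. The TMM factor was 0.527 in that replicate 2 and 1.09 to 1.72 in the other CD44minus libraries, so the size of the gap depends on the scaling. Areg had the largest difference (log2 fold change 1.55, SE 0.71, unadjusted p = 0.0422, edgeR adjusted p = 1.00). Of the 10 genes 9 had a positive estimate, as did 57.5% of all genes. The median of the 10 was 0.80 against 0.19 over all genes. With DESeq2's size factors these medians were 0.66 and 0.13, and with library totals alone 0.19 and -0.12. Without Sox4cKO CD44minus replicate 2 the estimate for Areg was -0.49, for Hbegf -0.61, for Erbb2 -0.82 and for Erbb3 -0.73. Without replicate 1 it was 2.33 for Areg (edgeR adjusted p = 0.00509), and 6 of 10 genes passed as higher (Areg, Hbegf, Erbb3, Erbb2, Lrig1 and Ereg), as did 27.5% of all genes.

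Over 8 libraries 0 of 10 genes passed in this gate, as did 0% of all genes, with 116 genes at an unadjusted p under 0.05. Tgfa was the 1 gene of 10 with both Sox4cKO libraries higher (11.5 and 13.8 against 14.4 and 27.8 CPM), as were 6.52% of all genes. Egf was the 1 gene with both lower, by under 1 CPM (10.8 and 11.8 against 10.4 and 10.4 CPM), as were 5.94%. Summed markers of dissociation stress, which include Fos, Jun and Egr1, came to 1567 and 2975 CPM (control) and 1278 and 8109 CPM (knockout). Those of Paneth cells came to 9321 and 20068 CPM against 5906 and 32456 CPM, and those of enterocytes to 12823 and 25278 CPM against 10389 and 54142 CPM. All 3 were highest in the same library as Areg, Hbegf, Erbb2 and Erbb3, and their part in these levels was not tested.

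A test of whether the genotype effect differed between the gates asked whether loss of Sox4 acted unequally in crypt and villus cells. It passed for 0 of 10 genes and 0% of all genes, with 50 genes at an unadjusted p under 0.05 in edgeR. All 10 estimates were negative, from -1.41 for Btc to -0.02 for Egf, and 34.9% of all genes were positive. The median of the 10 was -0.90 against -0.37 over all genes. With library totals alone these medians were -0.35 and -0.02. Without Sox4cKO CD44minus replicate 1 Areg passed (-2.07, edgeR adjusted p = 0.0388), as did 0.509% of all genes as lower. Without replicate 2 the estimate turned positive for Areg (0.75), Hbegf (0.49), Erbb2 (0.81), Erbb3 (0.82) and Ereg (0.30).

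The wider pathway was described with 7 lists of 80 genes, of which 79 were in the tables and tested. They cover other receptors, ligands and inhibitors of the family, ligand shedding, adaptors and receptor endocytosis, Ras-MAP kinase, PI3K, STAT and phospholipase C signalling, feedback inhibitors, and response genes. Between gates 1 of 79 genes passed in each genotype, where 2.46% (control) and 2.59% (Sox4cKO) of all genes did. It was the growth regulator Myc, which is also 1 of the 10 crypt markers. Myc read 10.4 to 16.2 CPM in the CD44minus libraries, and in CD44plus 144 and 150.1 CPM (control) and 171 and 182 CPM (knockout). The log2 difference between gates was 3.28 in control (SE 0.68, edgeR adjusted p = 0.0223) and 3.92 in Sox4cKO (SE 0.70, edgeR adjusted p = 0.0139). Of the response list 11 of 12 genes had a positive difference in control, with a median of 1.48, and 9 of 12 in Sox4cKO, with a median of 0.65. Fos and Egr1 of this list are also markers of dissociation stress, whose part in these differences was not tested. Over all genes 47.2% were positive in control (median -0.19) and 39.8% in Sox4cKO (median -0.48).

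Next in order of p between gates in control were the cell cycle gene Ccnd1 (log2 difference 2.89, SE 0.86, edgeR adjusted p = 0.0790) and Spred1, an inhibitor of Ras signalling (1.82, SE 0.61, edgeR adjusted p = 0.112). Cblb, a ubiquitin ligase for activated receptors, followed at 1.94, and the feedback inhibitor Spry2 at 1.65. The control libraries read Ccnd1 at 16.8 and 37.3 CPM in CD44minus against 211 and 193 CPM in CD44plus. Ras-MAP kinase genes had a median of 1.18 with 10 of 12 positive in control and 0.29 with 8 of 12 in Sox4cKO. Feedback inhibitors had a median of 0.70 with 9 of 11 positive in control and 0.29 with 7 of 11 in Sox4cKO. Without Sox4cKO CD44minus replicate 2 the Sox4cKO medians were 1.46 for Ras-MAP kinase genes, 1.13 for feedback inhibitors and 1.24 for response genes. The list of other receptors, ligands and inhibitors had a median of -2.34 with 3 of 9 positive in control and -0.73 with 1 of 9 in Sox4cKO (-1.64 with 3 of 9 without that library). Its 5 neuregulin and epigen genes were rare in CD44minus, with 0 to 17 reads for Nrg1, 11 to 19 for Nrg2, 1 to 58 for Nrg3, 13 to 15 for Nrg4 and 1 to 8 for Epgn. In control CD44minus replicate 2 the background measure predicted 6.10 of the 13 reads of Nrg1, 1.85 of the 19 of Nrg2 and 4.02 of the 22 of Nrg3. It predicted 3.58 of the 14 of Nrg4 and 1.07 of the 8 of Epgn. In CD44plus Nrg4 had 31 to 107 reads, 10.9 to 62.3 times the predicted background. Erbb4, the remaining receptor of the family, had 31 and 36 reads (20.9 and 14.2 CPM) in the control libraries of CD44minus, where the background measure predicted 7.41 and 7.28, and 3.66 and 1.46 CPM in those of CD44plus.

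Between genotypes 0 of 79 genes passed in either gate. In CD44plus 49 of 79 had a positive estimate, as did 49.9% of all genes, with a median of 0.07 against 0.00 over all genes. Without Sox4cKO CD44plus replicate 2, the library with the most mast cell and T cell markers, 31 of 79 were positive, with a median of -0.07. Feedback inhibitors had a median of 0.36, with 9 of 11 positive, but -0.05 with 4 of 11 positive without that library. In both Sox4cKO libraries 4 of the 11 lay above both controls (Spry2, Spred2, Socs3 and Ptpn11), as did 14.2% of all genes. Spred1 (87.7 CPM) and Dusp6 (61.6 CPM) did so in replicate 2 but not in replicate 1. The share of all genes above both controls in a single library was not counted. The part of the immune cells in this was not tested. Spry2 read 21.8 and 25.02 CPM with Sox4 against 27.8 and 50.1 CPM without it (0.74, SE 0.55), and Socs3 42.9 and 33.6 CPM against 66.1 and 74.2 CPM (0.87, SE 0.62). Both genes were higher in each Sox4cKO library than in each control library, by less than the fit could separate from the spread (edgeR adjusted p = 1.00 for both). Ier3, an immediate early gene, had the smallest p of the 79 (1.53, SE 0.76, unadjusted p = 0.0593) and was high in replicate 2 alone, with 10.1 and 16.4 CPM against 15.3 and 60.8 CPM. In CD44minus 64 of 79 had a positive estimate, as did 57.5% of all genes, with a median of 0.72 against 0.19 over all genes. Without Sox4cKO CD44minus replicate 2 it was 19 of 79, with a median of -0.37. The shares of all genes that were positive without 1 library are not given here.

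**Figure D5:**
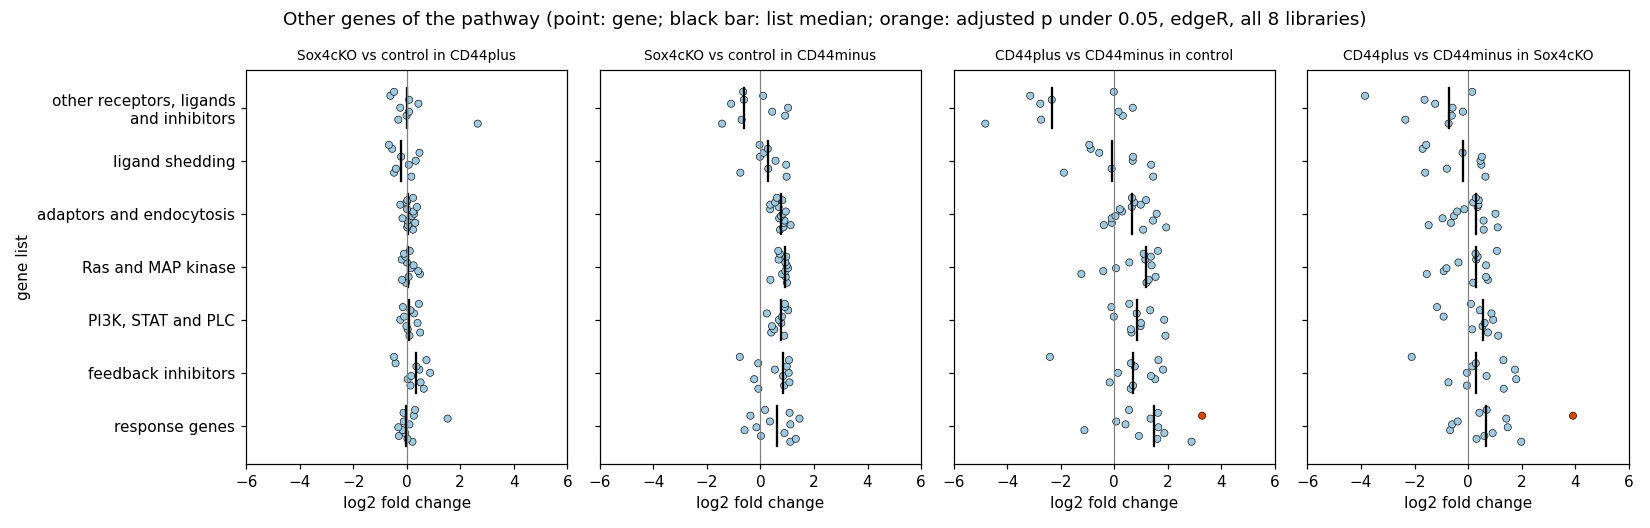
Log2 fold changes of the 79 tested genes of 7 pathway lists in the 4 comparisons between groups, from the edgeR fit of all 8 libraries, with 1 point per gene, a black bar at each list's median and orange for adjusted p under 0.05. Myc in the response list is the only orange point, in both comparisons between gates, and the medians between genotypes in CD44plus lie between -0.21 and 0.36.

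Genes whose pattern over the 8 libraries was most like that of a member were found by correlation of log2 CPM among 10899 genes with a mean of at least 10 CPM. For Lrig1 they were Nop56, a ribosome assembly factor (r = 0.999), Mthfd1, an enzyme of folate metabolism (r = 0.999), and Prkrir (r = 0.997). For Egfr they were Cachd1, Phf16 and Grhl2, a transcription factor of epithelia (r = 0.988 to 0.992). Erbb2 was most like the kinase gene Pak1 (r = 0.998), Erbb3 most like Sidt2 (r = 0.998), Areg most like the adaptor gene Ticam1 (r = 0.990), Hbegf most like Insig2 (r = 0.988) and Tgfa most like Plce1 (r = 0.968). The points share their libraries, depth and gate, so these values describe only the pattern.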

How the data were processed

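Each deposited table holds raw read counts per gene symbol, with HTSeq's summary lines after the genes. The submitters' processing notes list the mm10 build, the counter HTSeq 0.6.1p1, the aligner STAR 2.2.5b, and Trimmomatic 0.36 and bcl2fastq 2.17.4. Per the labels' protocols, a stranded kit for small amounts of total RNA was used. Whether HTSeq counted by strand is not given in the sources used here, so genes that overlap another gene are uncertain. Of uniquely placed reads 76.8% to 96.6% per CD44minus library and 64.6% to 79.3% per CD44plus library were assigned to no gene and were left out. Where or on which strand they lay is not given in the sources used here.

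The counts were fitted in R 4.3.3 with edgeR 4.0.16 (quasi-likelihood test, 4 groups, 8 libraries), after filterByExpr with a minimum count of 10 and TMM scaling. Benjamini-Hochberg adjustment covered 20427 genes, with a threshold of 0.05 and 5 comparisons. TMM factors ran from 0.527 to 1.72. The biological coefficient of variation was 0.616. Alternatives were DESeq2 1.42.0 and its size factors, limma 3.58.1 (voom), library totals, no filter, background subtraction, the 4 libraries of a comparison, a replicate block and removal of each library. Removal of libraries from groups not compared, and of each library for the medians of pathway lists, was added after the data were seen. Deposited tables of both gates carry the same animal number, so gates are paired, and deviations from group means correlated between gates at 0.103 in control and 0.526 in Sox4cKO. Control and Sox4cKO libraries share only a number.

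Exon lengths came from GENCODE on GRCm38 for 23005 of 23366 symbols and promoter windows from RefSeq. The background measure is reads per exon length on 1436 receptor genes of smell and pheromones. Intervals of counts and the limit of 3 reads cover counting error only. The scripts were tested on simulated data. The 10 genes and all lists were chosen with earlier results of these data known. All 10 genes are named, as are pathway genes past the threshold or among the 10 of smallest p in a comparison, and the 3 genes most like a member among those with at least 10 CPM. Other genes were named after their values were seen.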

Additional observations from a re-analysis of the deposited data

How the results depend on the processing

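Over the 10 genes and 5 comparisons, 339 values from other settings kept their direction and their side of the threshold, 33 passed where the fit of 8 libraries did not, and 18 turned their direction. With 1 library left out at a time, 343, 24 and 33 values did so.

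Members called between gates in control (0) and in Sox4cKO (0) numbered 1 and 1 with DESeq2's size factors, 2 and 3 with library totals, 1 and 2 with no filter, 3 and 3 by DESeq2, 2 and 2 by limma-voom, 2 and 2 with background subtracted and 3 and 1 with the animal as a replicate block. The fits of 4 libraries called 5 and 0. Pathway genes called (1 and 1) numbered 14 and 14 with library totals, 6 and 3 by DESeq2, 4 and 3 with background subtracted, 7 and 2 with the replicate block and 37 and 0 in the fits of 4 libraries. In control they numbered 2 with no filter and 6 by voom. Genes called over the whole table (502 and 529) numbered 2091 and 2039 with library totals, 994 and 884 with no filter, 2199 and 1765 by DESeq2, 2176 and 1105 by voom, 1490 and 1320 with background subtracted, 3659 and 1712 with the replicate block and 9877 and 0 in the fits of 4 libraries. Called genes that were higher made up 81.9% and 64.1% with TMM, and 68.6% and 51.3% with DESeq2's size factors. Between genotypes in CD44plus (0) the fit of 4 libraries called 17 genes and the number as a replicate block 1. The block changed no other count of members.

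Some directions turned. Btc between gates in Sox4cKO was -0.27 with DESeq2's size factors, -0.47 with library totals, -0.27 by DESeq2 and -0.16 in the fit of 4 libraries. The Egf difference between gates of the genotype effect was 0.053 with size factors, 0.19 with totals, 0.050 by DESeq2 and 0.23 with background subtracted. Library totals gave -0.015 for Erbb3 between genotypes in CD44plus and -0.034 for Tgfa between gates in control. Background subtraction gave 0.035 for Tgfa between gates in Sox4cKO. In control, Erbb2 between gates was 0.032 with no filter, 0.21 by voom and 0.16 with the block, and Erbb3 0.071 by voom and 0.042 with the block. In CD44plus, voom gave 0.010 for Erbb2 and 0.0025 for Hbegf between genotypes. The cause of these turns was not tested.

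Leaving out 1 library at a time, members called ran from 0 to 4 between gates in control, 0 to 6 in Sox4cKO, 0 to 6 between genotypes in CD44minus and 0 to 1 for the difference between gates. Pathway genes ran from 0 to 38, 0 to 41 and 0 to 53 in the first 3 of these, and all genes from 0 to 7362, 11 to 8440, 0 to 7613 and 0 to 254. Between genotypes in CD44plus all genes ran from 0 to 24.

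Log2 differences whose direction turned with 1 library left out had these ranges. Between genotypes in CD44plus, they were Erbb2 -0.078 to 0.023, Egf -0.52 to 0.22, Ereg -0.24 to 0.59, Tgfa -0.62 to 0.26 and Hbegf -0.49 to 0.40. Between genotypes in CD44minus, they were Erbb2 -0.82 to 1.74, Erbb3 -0.73 to 1.78, Lrig1 -0.034 to 1.21, Ereg -0.070 to 1.63, Areg -0.49 to 2.33 and Hbegf -0.61 to 1.93. Between gates in control, they were Erbb2 -0.57 to 0.88, Erbb3 -0.55 to 0.62 and Hbegf -0.84 to 0.064. Between gates in Sox4cKO, they were Erbb2 -1.62 to 0.79, Erbb3 -1.78 to 0.75, Tgfa -0.69 to 0.27, Hbegf -2.38 to 0.17 and Btc -0.19 to 0.24. For the difference between gates of the genotype effect, they were Erbb2 -1.76 to 0.81, Erbb3 -1.69 to 0.82, Egf -0.30 to 0.36, Ereg -1.40 to 0.30, Areg -2.07 to 0.75 and Hbegf -2.05 to 0.49.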
